A study of Mus musculus with 9 samples.

Results

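Oncofetal growth genes are transcribed strongly in the embryo, are quiet in most adult tissues and are often switched on again in tumors. The genes described here are the heparin-binding growth factors Mdk and Ptn, the small adaptor proteins Bex1 and Bex2, the RNA-binding protein Lin28b, the chromatin proteins Hmga1 and Hmga2, and the mRNA-binding proteins Igf2bp1, Igf2bp2 and Igf2bp3. Of these 10 genes, 8 had at least 1 probe-set that the probe table gave to them alone, and they were covered by 21 of the 45101 probe-sets on the array, or 8 of the 18194 genes that could be named. Hmga1 and Igf2bp2 had no such probe-set and were not analysed here. Mdk and Bex1 were selected on their lower signal in later passage wild type cells, and the other genes were added as relatives or pathway partners with the values of these arrays known. The comparison of passages is therefore a description for these genes, given without a test, and so is the null set against P5. The comparison of genotypes did not choose Mdk and Bex1, and was tested, although it shares its wild type arrays with the comparison that did. Its values were also known when the other genes were added.

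RNA came from primary mouse embryo fibroblasts (MEFs), a mixed population of mesenchymal cells put into culture from 13.5 day embryos, where they divide for a limited number of passages before they senesce. There were 3 arrays of Tgif1 null MEFs (genotype Tgif1 -/-) at passage 3 (null), 3 of wild type MEFs at passage 3 (P3) and 3 of wild type MEFs at passage 5 (P5). All 9 cultures were of a mixed strain, C57BL/6J x 129Sv/J, were untreated, grew in DMEM with 10% fetal bovine serum, and were passaged on a 3T3 schedule. Tgif1 is a homeodomain corepressor that limits the response to TGFβ, and the question behind the design was whether cells without it at P3 resemble wild type cells at P5. The knockout is in every cell of the embryo, no null array at P5 was analysed here, and which embryos gave which culture is not stated. Tgif1 itself had a log2 signal of 2.48, 3.21 and 2.50 in the null and between 9.72 and 10.18 in all wild type cultures.

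Each value is a log2 signal, so a difference of 1 is a change of 2-fold, and 2.23 was the lowest value on every array. Genes at that floor cannot show a decrease. Between 18127 and 18258 probe-sets per array lay above 4, which is used here as the level of a dim signal, and replicate arrays correlated at 0.996 to 0.999. Fibroblast markers were present, with 12 of 13 above 4 on all arrays, while 5 of 16 neural and neural crest markers and 1 of 8 endothelial markers were. Of the latter lists 9 and 5 genes stayed below 4 on every array. Since a culture was measured as a whole, fewer cells of a type and less RNA per cell cannot be told apart.

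Midkine, encoded by Mdk, and pleiotrophin, encoded by Ptn, are a pair of related secreted growth factors that bind heparan and chondroitin sulfate chains and act on growth, migration and survival in the midgestation embryo. The Bex proteins are small, largely disordered adaptors encoded in a cluster on the X chromosome and were first noted for their expression in brain and embryo. LIN28 proteins bind the precursors of let-7 microRNAs and stop their maturation. Mature let-7 in turn lowers the mRNAs of Hmga2, Lin28b and the Igf2bp family, so that high LIN28 and high levels of these targets mark fetal and stem cells. Igf2bp proteins, also called IMPs, carry and protect mRNAs such as that of Igf2.

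Mdk signal (probe-set 1416006_at) was high at P3 and low at P5 in wild type cells. It was 8.47, 7.91 and 8.55 on the P3 arrays and 5.46, 5.30 and 5.42 on the P5 arrays. The 2 groups were thus well apart, and P5 was lower by 2.92 ± 0.30 (SE), a 7.56-fold difference in signal. The null cultures had 9.52, 8.85 and 8.45, and overlapped with P3 but not with P5. The null exceeded P3 by 0.63 (95% confidence interval -0.09 to 1.35), which did not pass the test across all probe-sets (limma adjusted p = 0.594). One culture carried much of this difference, which was 0.34 without null replicate 1. Set against P5, the mean of the null was higher by 3.55, or 11.7-fold. The null arrays thus lay above the P5 arrays, which is a description, since the low P5 signal chose this gene. The data do not settle whether the null differed from P3.

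Ptn, the relative of Mdk, was not lower at P5. Its brightest probe-set, 1448254_at, read 11.71, 12.27 and 11.46 at P3 and 12.26, 12.20 and 12.28 at P5, so the groups overlapped, with a mean difference of 0.43 ± 0.19 (SE). The null arrays, at 11.28, 11.40 and 11.43, were all below the P3 arrays, by 0.45 on average (95% confidence interval of null minus P3 -0.92 to 0.02, limma adjusted p = 0.532). Another Ptn probe-set, 1416211_a_at, had 9.95, 9.71 and 9.88 in the null, 10.37, 11.20 and 10.04 at P3, and 11.05, 11.29 and 11.15 at P5. There the null was also below all P3 arrays, with a mean difference of -0.69 (95% confidence interval -1.38 to -0.00, limma adjusted p = 0.487). Wild type P3 replicate 2 was the highest of its group on both probe-sets, and without it the null lay 0.22 and 0.36 below P3. The remaining Ptn probe-set was between 2.61 and 2.95 on all arrays and carries no information. Mdk and Ptn thus stood on opposite sides in the passage comparison, with P5 means lower by 2.92 for Mdk and higher by 0.43 and 0.62 on the 2 measured Ptn probe-sets.

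**Figure D1:**
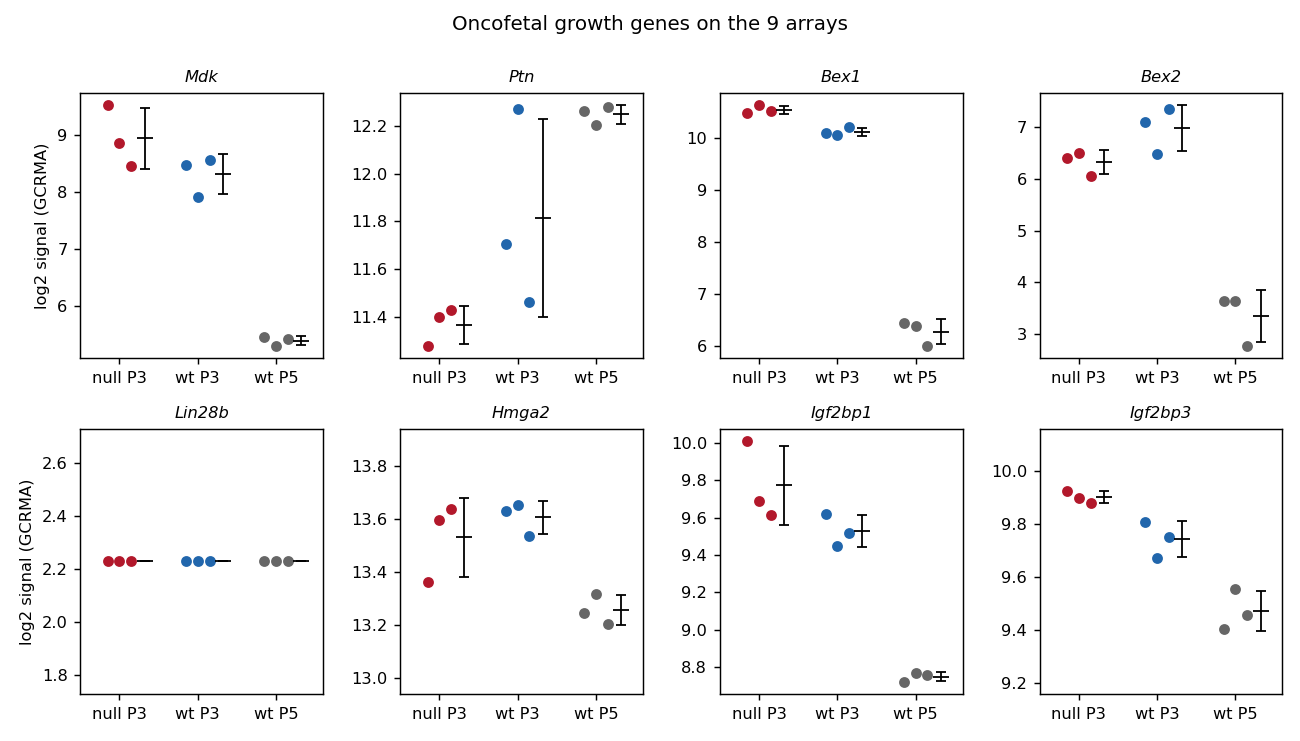
Log2 signal of the brightest probe-set of each of the 8 genes, with an axis of its own for each gene. Points are single arrays in the order of replicates 1 to 3 and black bars give mean ± SD (n = 3): Mdk, Bex1 and Bex2 are far lower at wild type P5 than at P3 while the null is near P3, Igf2bp1 has the same arrangement over a smaller range, and Lin28b lies at 2.23 throughout.

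Receptors for midkine and pleiotrophin were measured for all 22 genes listed, a group of receptor tyrosine phosphatases, syndecans, integrins, low-density lipoprotein receptors and related proteins. From P3 to P5, 3 rose and 2 fell (background over all genes 6.13% up and 7.11% down), with a median difference of 0.044 against 0 over all genes. Of the 18194 genes in that background, 7925 stayed below 4 on every array, against 4 of the 22 receptors. The shares and medians over all genes were not matched for signal, here and for the lists below. Lrp8, an apolipoprotein E receptor of the family that binds midkine, fell by 1.23 ± 0.11 (SE, limma adjusted p = 0.00222), from 8.29, 8.29 and 8.33 to 7.01, 7.09 and 7.10. Itga4, an integrin chain, fell by 0.87 ± 0.12 (SE, limma adjusted p = 0.00861), although with all its probe-sets averaged the decrease was 0.22 and did not pass (limma adjusted p = 0.196). The syndecans Sdc4 and Sdc2, cell surface carriers of heparan sulfate, rose by 0.89 ± 0.12 and 0.73 ± 0.12 (SE, limma adjusted p = 0.00716 and 0.0167). The rise of Sdc2 missed the threshold when any one P5 array was left out or another prior was used (limma adjusted p up to 0.0658). In the null 0 receptors rose and 1 fell (background 1.51% up and 1.07% down). This was Ptprs, a receptor phosphatase, at 8.92, 8.84 and 8.94 in the null against 9.24, 9.23 and 9.23 at P3 (limma adjusted p = 0.0274). Its decrease of 0.33 missed the threshold for 7 of the 9 arrays left out in turn, all but wild type P5 replicates 1 and 2, with an adjusted p of up to 0.108. Ptprz1, the best known pleiotrophin receptor, had 7.23, 7.58 and 7.84 in the null, 7.86, 7.94 and 7.84 at P3 and 7.92, 8.08 and 8.15 at P5, and passed in neither comparison.

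Bex1 (1448595_a_at) had the largest difference between passages of the 21 probe-sets. Its log2 signal was 10.11, 10.07 and 10.22 at P3 and 6.44, 6.39 and 6.00 at P5, a difference of 3.85 ± 0.12 (SE), or 14.5-fold. In the null it was 10.49, 10.64 and 10.52, above each P3 array. The difference of 0.42 (95% confidence interval 0.13 to 0.71) did not pass the test across all probe-sets (limma adjusted p = 0.230, and 0.0517 to 0.642 over the alternatives tried). The null mean was 19.3-fold higher than that of P5. Bex2 (1417388_at) gave 7.11, 6.49 and 7.35 at P3 and 3.64, 3.64 and 2.77 at P5, a difference in signal of 3.64 ± 0.33 (SE). Since its P5 values were below the level of a dim signal, this may be a lower limit of the change. In the null Bex2 was 6.40, 6.51 and 6.07, which overlapped with P3 (difference -0.66, 95% confidence interval -1.44 to 0.13, limma adjusted p = 0.636). As for Mdk, the null means of both Bex genes lay nearer to P3 than to P5, 4.27 and 2.98 above the latter. This too is a description, since the low P5 signal led to the choice of Bex1.

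Bex4, another gene of the family and not one of those selected, was tested in both comparisons. It fell from 6.49, 6.54 and 6.72 at P3 to 3.78 on each of the 3 P5 arrays, by 2.80 ± 0.09 (SE, limma adjusted p = 9.68e-05). A value that is the same on 3 arrays may be the lower limit that GCRMA set for this probe-set, which was not tested. In the null Bex4 was 5.94, 6.19 and 5.94, lower than P3 by 0.55 ± 0.09 (SE, limma adjusted p = 0.0412), a call that was missed for 8 of the 9 arrays left out in turn, all but null replicate 2 (limma adjusted p up to 0.115). Bex3 had 12.65, 12.33 and 12.76 at P3 and 11.96, 12.04 and 12.10 at P5, a difference of -0.55 ± 0.14 (SE) that did not pass (limma adjusted p = 0.0618), and in the null it was 12.78, 12.52 and 12.45. Of the 8 measured Bex and Tceal genes other than Bex1 and Bex2, Bex4 was the 1 that passed in either comparison. Over all genes, 1.51% rose and 1.07% fell in the null, and 6.13% rose and 7.11% fell at P5. Medians over the 8 were 0.016 for null minus P3 and -0.0047 for P5 minus P3, and 3 of the 8 stayed below 4 on every array. Bex transcripts are similar in sequence, and reads of one by the probes of another were not checked here.

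The differences at P5 did not extend over the whole X-linked cluster. In the mouse gene order of assembly GRCm38.p6 Bex2 is followed by Nxf3, Bex4, Tceal8, Tceal5, Bex1, LOC115489115, Tceal7, Tceal9 and Bex3, and then, beyond Kir3dl2, Kir3dl1 and Tceal3, by Tceal1 and Morf4l2. Between Bex4 and Bex1, Tceal8 was near 13 in all groups and had a P5 minus P3 difference of 0.08 ± 0.05 (SE, limma adjusted p = 0.481). On the other side of Bex1, Tceal9 differed by -0.15 ± 0.05 (SE, limma adjusted p = 0.125). Tceal1 and Morf4l2 differed by 0.20 and 0.07 and did not pass. Nxf3 was at the floor and Tceal7 near it, so neither could show a decrease.

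**Figure D2:**
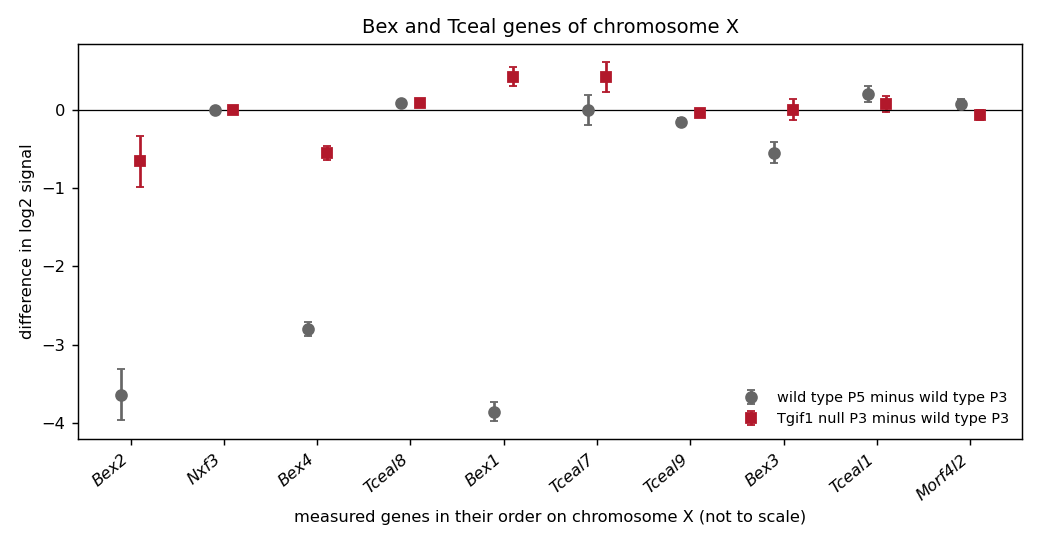
Difference in log2 signal (± SE) for the measured genes of the Bex and Tceal cluster, in their order on chromosome X and not to scale, between wild type P5 and wild type P3 (circles) and between the null and wild type P3 (squares). Bex2, Bex4 and Bex1 lie between -3.85 and -2.80 at P5, while Tceal8, which sits among them, lies at 0.08.

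The promoters of the 4 Bex genes are shown because the 3 genes Bex1, Bex2 and Bex4 were lower together at P5 while Bex3 differed by less. Sequences are from RefSeq, GRCm38.p6, and run 5′ to 3′ on the strand of the gene, from 250 bases before the transcription start to 50 after it. Bex1 is at chrX:136215464-136215763 on the minus strand, Bex4 at chrX:136138746-136139045 on the plus strand, Bex2 at chrX:136068187-136068486 on the minus strand and Bex3 at chrX:136270003-136270302 on the plus strand. Capitals mark the GC box GGGCGG and the E-box CACGTG, searched on both strands, and no 2 matches overlap.
Bex1: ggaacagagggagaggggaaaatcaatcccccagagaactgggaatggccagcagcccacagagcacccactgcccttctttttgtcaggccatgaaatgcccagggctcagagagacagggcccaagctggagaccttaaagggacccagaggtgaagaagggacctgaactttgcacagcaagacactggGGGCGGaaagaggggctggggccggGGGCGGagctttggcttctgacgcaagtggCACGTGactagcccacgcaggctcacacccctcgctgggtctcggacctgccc
Bex4: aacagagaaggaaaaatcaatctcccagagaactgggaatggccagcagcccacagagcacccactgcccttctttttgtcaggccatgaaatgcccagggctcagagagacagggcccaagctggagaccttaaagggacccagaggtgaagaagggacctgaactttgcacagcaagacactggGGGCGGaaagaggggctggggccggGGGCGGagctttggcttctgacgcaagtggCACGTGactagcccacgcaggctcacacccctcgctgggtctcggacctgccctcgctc
Bex2: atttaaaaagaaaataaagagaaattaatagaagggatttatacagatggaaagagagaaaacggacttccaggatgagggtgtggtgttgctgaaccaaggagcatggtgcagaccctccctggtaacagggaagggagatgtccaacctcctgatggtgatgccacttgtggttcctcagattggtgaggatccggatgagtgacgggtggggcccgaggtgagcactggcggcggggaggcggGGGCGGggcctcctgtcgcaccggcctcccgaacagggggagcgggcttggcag
Bex3: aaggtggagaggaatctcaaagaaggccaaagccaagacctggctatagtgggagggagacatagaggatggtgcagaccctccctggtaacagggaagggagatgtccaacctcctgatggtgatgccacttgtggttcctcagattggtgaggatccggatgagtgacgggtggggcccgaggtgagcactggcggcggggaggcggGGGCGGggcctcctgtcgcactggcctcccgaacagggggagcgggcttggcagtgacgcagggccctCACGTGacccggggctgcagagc
The 4 promoters formed 2 pairs. Those of Bex1 and Bex4 aligned over 290 bases with 287 identical, and those of Bex2 and Bex3 aligned over 199 bases with 197 identical. Between the pairs, no alignment was longer than 16 bases. Within these windows, Bex1 and Bex4 each held 2 GC boxes and 1 E-box, Bex3 held 1 of each, and Bex2 held 1 GC box and no E-box. The Bex2 window stops where its match with Bex3 ends, and the E-box of Bex3 lies just past that point. Bases of Bex2 beyond its window were not read here, so a difference in E-boxes between Bex2 and Bex3 cannot be told from them. Of 32851 promoters of this length in the table, 35.7% held the GC box, 7.15% the E-box and 3.46% both. The signal at P5 was under 4 for Bex2 and 11.96 to 12.10 for Bex3, the pair that matched over 199 bases. Outside that stretch their windows did not align, and the part of the promoters in these signals was not tested.

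Lin28b was at 2.23 on all 9 arrays, and so was its relative Lin28a to 2 decimals. Neither gene was therefore detected at any passage or in either genotype, and no difference could be seen. The arrays did not measure mature microRNAs. The let-7 family that LIN28 proteins hold back is shown by its sequence as background. The target genes counted below were listed from general knowledge, and their let-7 sites were not located here. Of the mature mouse microRNAs in the RefSeq table, 11 share bases 2 to 8, the seed (in capitals), and 9 of these carry a let-7 name.
mmu-let-7a-5p: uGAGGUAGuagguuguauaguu
mmu-let-7d-5p: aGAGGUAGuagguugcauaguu
mmu-let-7i-5p: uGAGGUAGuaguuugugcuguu
mmu-miR-98-5p: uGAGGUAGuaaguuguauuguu
Let-7a, let-7d, let-7i and miR-98 differ outside the seed and are the same within it.

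Hmga2, an architectural chromatin protein of embryonic mesenchyme and the best known let-7 target, kept a high signal in all cultures. The brightest of its 4 probe-sets, 1422851_at, had 13.36, 13.59 and 13.64 in the null, 13.63, 13.65 and 13.54 at P3 and 13.25, 13.32 and 13.20 at P5. P5 was below every P3 array, by 0.35 ± 0.08 (SE), or 1.28-fold, which is small beside the differences of Mdk and the Bex genes. The other bright probe-sets differed between the passages by -0.13 and -0.20. A dimmer probe-set, 1446196_at, was 7.31, 7.16 and 6.95 at P3 and 5.77, 5.60 and 6.35 at P5, lower by 1.24 ± 0.25 (SE), so the probe-sets of Hmga2 did not give 1 size. In the null the 3 bright probe-sets were within 0.14 of P3, and the dim one, at 6.31, 6.38 and 6.91, was lower by 0.61 (95% confidence interval of null minus P3 -1.21 to -0.01). None of the 4 passed for null against P3 (limma adjusted p of 0.482 or more).

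Igf2bp1, an IMP largely restricted to the embryo, was lower at P5 and, on 1 probe-set, higher in the null. Across passages its 3 brighter probe-sets were lower at P5, by 0.78 ± 0.10, 1.05 ± 0.10 and 0.69 ± 0.05 (SE), or 1.72-, 2.07- and 1.61-fold. The values on the first of them were 9.62, 9.45 and 9.52 at P3 and 8.72, 8.77 and 8.76 at P5. The dimmest probe-set of the gene differed by -0.34 ± 0.21 (SE), and its groups overlapped.

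One Igf2bp1 probe-set, 1449210_at, was the only one of the 21 to pass the test between genotypes. It had 8.86, 8.86 and 8.97 in the null, 8.30, 8.46 and 8.41 at P3 and 7.69, 7.72 and 7.70 at P5. It rose by 0.51 (95% confidence interval 0.39 to 0.63, limma adjusted p = 0.0110), or 1.42-fold. Every null array was above every P3 array, which were above every P5 array. Leaving out any 1 of the 9 arrays kept the call, with differences of 0.46 to 0.54. The call was lost when limma's prior was fitted as a trend over signal and made robust to outliers (limma adjusted p = 0.226) and with the 6 arrays of the 2 groups fitted alone (limma adjusted p = 0.0900). The other bright probe-sets of the gene were also higher in the null, by 0.24 (95% confidence interval -0.01 to 0.50) and 0.25 (0.00 to 0.50), and did not pass (limma adjusted p = 0.516 and 0.485).

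Igf2bp3, measured by 6 probe-sets, was at similar levels in all groups. The brightest, 1422610_s_at, had 9.92, 9.90 and 9.88 in the null, 9.81, 9.67 and 9.75 at P3 and 9.40, 9.56 and 9.46 at P5. The groups did not overlap, yet P5 was lower by only 0.27 ± 0.05 (SE), or 1.21-fold. The other 5 had P5 minus P3 differences between -0.18 and 0.14. Between the null and P3, 5 of the 6 were positive and 1 was negative, the largest at 0.21 (95% confidence interval 0.07 to 0.35, limma adjusted p = 0.194), and 0 passed the test.

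Counted together, 1 of the 21 probe-sets rose in the null and 0 fell, where 1.59% of all probe-sets passed in either direction. The differences were positive for 12, negative for 8 and absent for the 1 at the floor. Of the 21, 19 had a signal above 4 on at least 3 arrays.

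**Figure D3:**
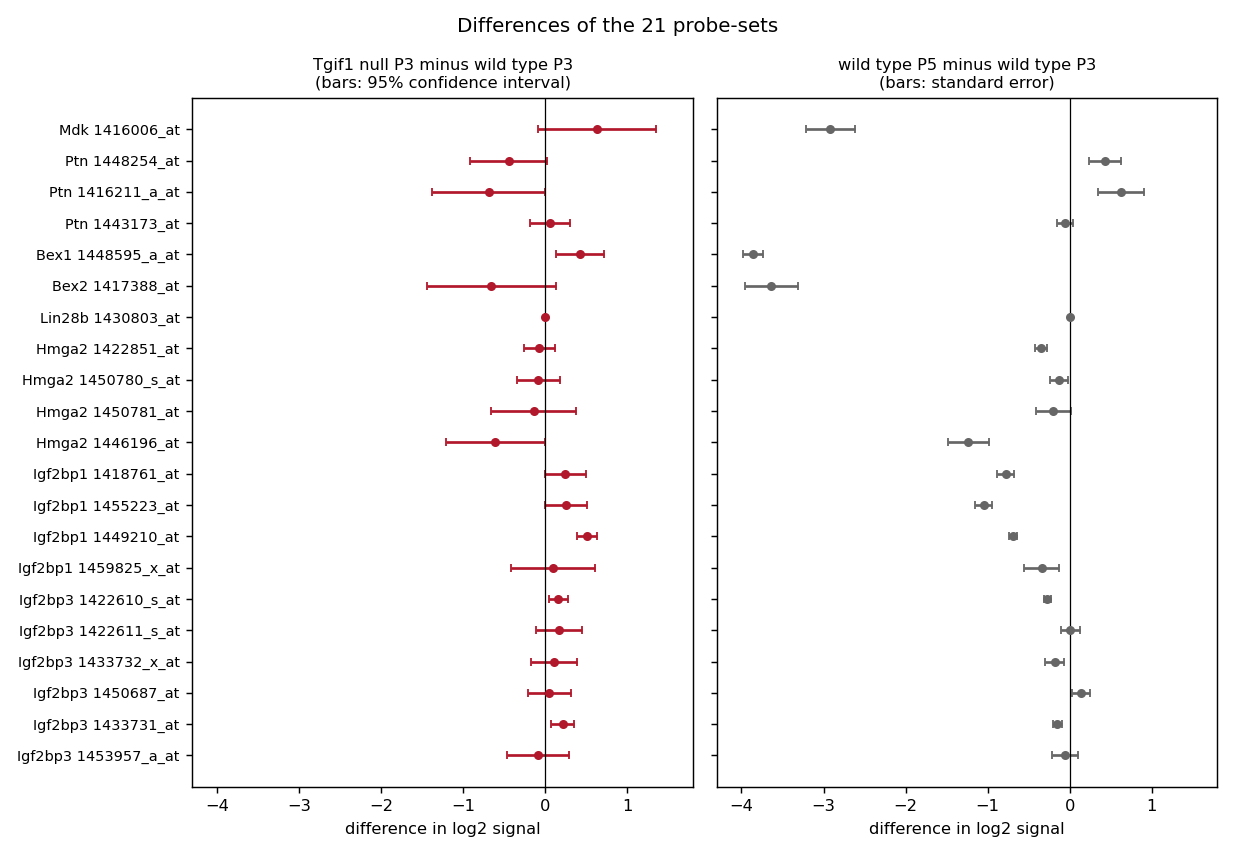
Differences in log2 signal of the 21 probe-sets, for the null minus wild type P3 (left, bars are 95% confidence intervals) and for wild type P5 minus wild type P3 (right, bars are standard errors), on the same axis. The passage differences reach -3.85, that of Bex2 is against a dim P5 signal, and those of the genotype lie between -0.69 and 0.63.

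The enzymes that make let-7 and the LIN28 pathway were measured for 17 genes, members aside. Between P3 and P5, 0 rose and 5 fell (6.13% and 7.11% of all genes), with a median of -0.11 against 0 over all genes. Tut4, the terminal uridylyltransferase that LIN28A recruits to let-7 precursors, fell by 0.83 ± 0.06 (SE, limma adjusted p = 0.000778), from 7.94, 8.02 and 8.02 to 7.20, 7.10 and 7.19. Drosha and Dicer1, the nucleases that cut microRNA precursors, fell by 0.46 and 0.44, and Tarbp2, a partner of Dicer1, by 0.39 (limma adjusted p = 0.00965, 0.000802 and 0.00358). With the trended and robust prior, Drosha, Dicer1 and Tarbp2 missed the threshold (limma adjusted p = 0.0699, 0.0678 and 0.0921). In the null 1 gene rose and 0 fell (1.51% and 1.07% of all genes). Dicer1 was 8.92, 8.83 and 8.94 in the null and 8.62, 8.60 and 8.62 at P3, a rise of 0.28 ± 0.03 (SE, limma adjusted p = 0.0133) that was missed without wild type P3 replicate 1 (limma adjusted p = 0.0558). With its probe-sets averaged the rise was 0.19 and did not pass (limma adjusted p = 0.0829).

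Among 27 measured let-7 targets other than the genes above, 5 rose and 4 fell from P3 to P5 (6.13% and 7.11% of all genes), with a median of -0.0019, so these targets did not move in 1 direction. Those that fell were Cdc25a, a phosphatase that drives the cell cycle, by 0.77 ± 0.10 (SE, limma adjusted p = 0.00752), Hic2, Cdk6 and Dicer1, which is itself a let-7 target and is counted in both lists. Dusp1, a phosphatase of MAP kinases, rose by 1.23 ± 0.11 (SE, limma adjusted p = 0.00216), from 12.47, 12.32 and 12.46 to 13.61, 13.72 and 13.62. Thbs1, which encodes thrombospondin 1, rose by 0.97 ± 0.21 (SE, limma adjusted p = 0.0388), and this was missed for 8 of the 9 arrays left out in turn, all but wild type P3 replicate 2 (limma adjusted p up to 0.130).

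In the null 4 of the 27 targets rose and 0 fell (1.51% and 1.07% of all genes), with a median of 0.029. Hic2, a transcriptional repressor, was 5.41, 5.33 and 5.31 in the null, 4.73, 4.73 and 4.76 at P3 and 4.12, 4.24 and 4.24 at P5. Its rise of 0.61 ± 0.04 (SE, limma adjusted p = 0.00424) held for each array left out in turn and was lost with the trended and robust prior (limma adjusted p = 0.208). Hic2, Dicer1 and the Igf2bp1 probe-set above thus had the same order of groups, null over P3 over P5. Cdk6, a cyclin-dependent kinase of G1, had it as well, at 10.88, 10.85 and 10.92, 10.56, 10.48 and 10.58, and 10.19, 10.30 and 10.28. It rose by 0.34 ± 0.04 in the null (SE, limma adjusted p = 0.0194), and this was missed for 5 of the 9 arrays left out in turn, the 3 null arrays and wild type P3 replicates 1 and 3 (limma adjusted p up to 0.0712). Fas, the death receptor, had another order, at 7.05, 7.34 and 7.55 in the null, 6.38, 6.39 and 6.12 at P3 and 7.09, 7.26 and 7.05 at P5. It rose by 1.01 ± 0.14 in the null and by 0.83 ± 0.14 at P5 (SE, limma adjusted p = 0.0309 and 0.0190). The first call was missed for 8 of the 9 arrays left out in turn, all but null replicate 1 (limma adjusted p up to 0.105). The second was missed for 4, wild type P3 replicates 1 and 3 and wild type P5 replicates 1 and 2 (limma adjusted p up to 0.0754).

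**Figure D4:**
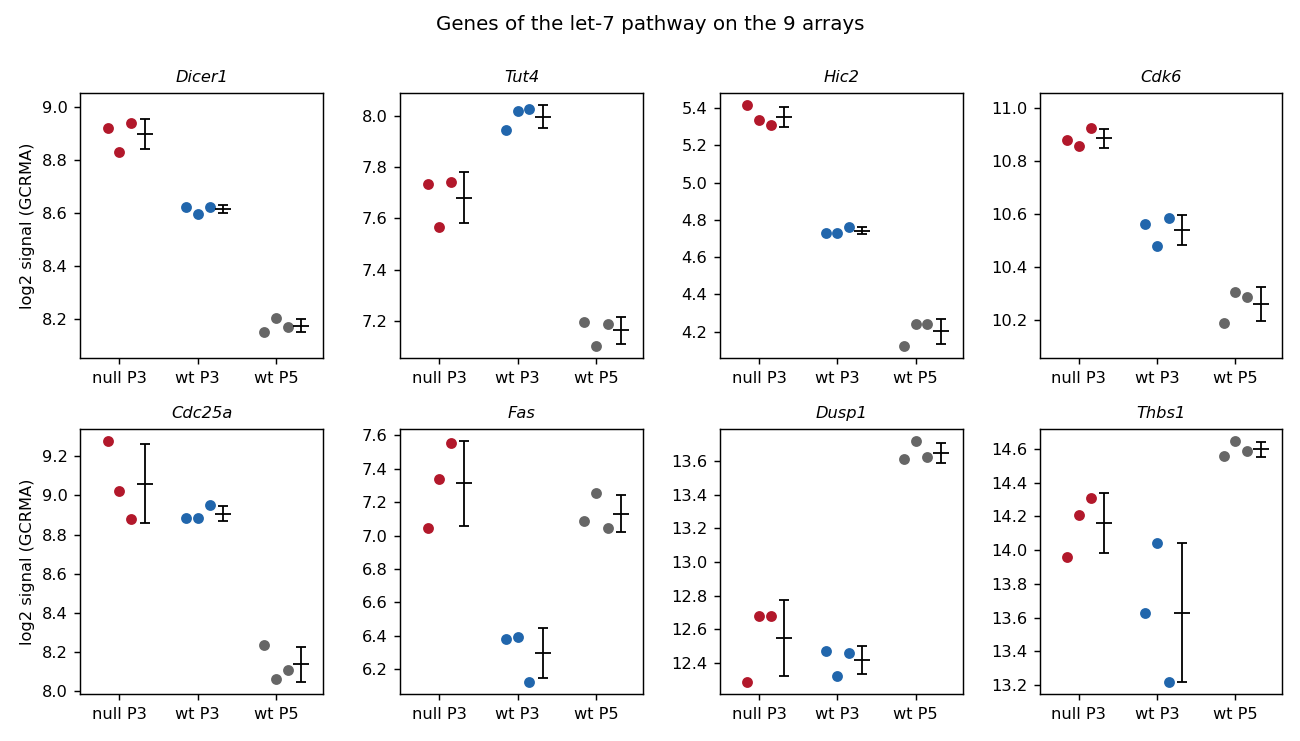
Log2 signal of 8 genes of the let-7 lists on the 9 arrays, with an axis of its own for each gene, points for single arrays and black bars for mean ± SD (n = 3). Dicer1, Hic2 and Cdk6 step down from the null to wild type P3 to wild type P5, Tut4 and Cdc25a are lowest at P5, Fas is lowest at P3, and Dusp1 is highest at P5.

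Clients of the IMPs and genes downstream of Hmga2 were measured for 14 genes, of which 4 rose and 2 fell at P5 (6.13% and 7.11% of all genes), with a median of -0.00027. Hmga2 is known to hold down the cell cycle inhibitors of the Ink4a/Arf locus. Cdkn2a, which encodes p16 and p19 Arf, was 9.77, 9.56 and 9.85 at P3 and 11.66, 11.71 and 11.61 at P5, and rose by 1.94 ± 0.09 (SE, limma adjusted p = 0.000349). Its neighbor Cdkn2b rose by 0.51 ± 0.07 and Junb, an AP-1 factor, by 0.84 ± 0.08 (SE, limma adjusted p = 0.00723 and 0.00229). Ccna2, cyclin A2, fell by 0.95 ± 0.08 (SE, limma adjusted p = 0.00134). In the null 0 rose and 1 fell (1.51% and 1.07% of all genes), and Cdkn2a was 9.53, 9.68 and 9.80, a difference of -0.05 from P3 that did not pass. The gene that fell was Ccnb2, cyclin B2, at 10.15, 10.22 and 10.09 against 10.75, 10.79 and 10.61 at P3, by 0.56 ± 0.06 (SE, limma adjusted p = 0.0123). This was missed without wild type P3 replicate 1, with the trended and robust prior and with the 2 groups fitted alone (limma adjusted p = 0.0542, 0.150 and 0.0886). Igf2 was 14.91, 14.66 and 14.65 in the null, 14.59, 14.38 and 14.62 at P3 and 14.09, 14.21 and 14.21 at P5. It passed in neither comparison (differences of 0.21 and -0.36, limma adjusted p = 0.565 and 0.0754).

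Other fetal growth and oncofetal genes, 23 in all, included 5 that fell and 0 that rose at P5 (7.11% and 6.13% of all genes), with a median of -0.11. Leading them were imprinted genes that act on fetal growth. Cdkn1c, the cyclin-dependent kinase inhibitor p57, had 9.08, 9.38 and 9.10 at P3 and 6.92, 7.10 and 6.71 at P5, and fell by 2.27 ± 0.16 (SE, limma adjusted p = 0.000972). Peg3, a zinc finger protein, had 11.58, 11.73 and 11.57 at P3 and 10.13, 10.17 and 10.16 at P5, and fell by 1.48 ± 0.12 (SE, limma adjusted p = 0.00138). Mest fell by 0.94 ± 0.14 (SE, limma adjusted p = 0.0108). Nnat fell by 1.99 ± 0.36 (SE, limma adjusted p = 0.0230), which was missed without wild type P3 replicate 1 or 3 or any one P5 array (limma adjusted p up to 0.0868). In the null none of these 4 passed, and their signals were 9.38, 9.68 and 9.87 for Cdkn1c and 11.91, 12.28 and 12.37 for Peg3, above P3 by 0.46 and 0.56 (limma adjusted p = 0.365 and 0.1005).

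Of the 23 genes, 1 rose and 1 fell in the null (1.51% and 1.07% of all genes). Crabp1, a retinoic acid binding protein, was 12.79, 12.79 and 12.87 in the null against 13.76, 13.67 and 13.78 at P3, and fell by 0.92 ± 0.05 (SE, limma adjusted p = 0.00144). It was the gene of these lists whose genotype call was kept under all alternatives tried. At P5 it was 12.85, 12.94 and 12.98, so it was the fifth gene to fall there. Gpc3, a glypican that restrains fetal growth, was 9.10, 8.78 and 8.83 in the null and 8.20, 8.40 and 8.13 at P3, and rose by 0.66 ± 0.10 (SE, limma adjusted p = 0.0417). This was missed for 8 of the 9 arrays left out in turn, all but wild type P3 replicate 2 (limma adjusted p up to 0.150). Besides Ccnb2, the genotype calls of Gpc3, Fas, Cdk6, Dicer1, Ptprs and Bex4 were also lost with the trended and robust prior and with the 2 groups fitted alone. Over these 7 genes the limma adjusted p was 0.150 to 0.588 with the first and 0.0560 to 0.207 with the second.

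**Figure D5:**
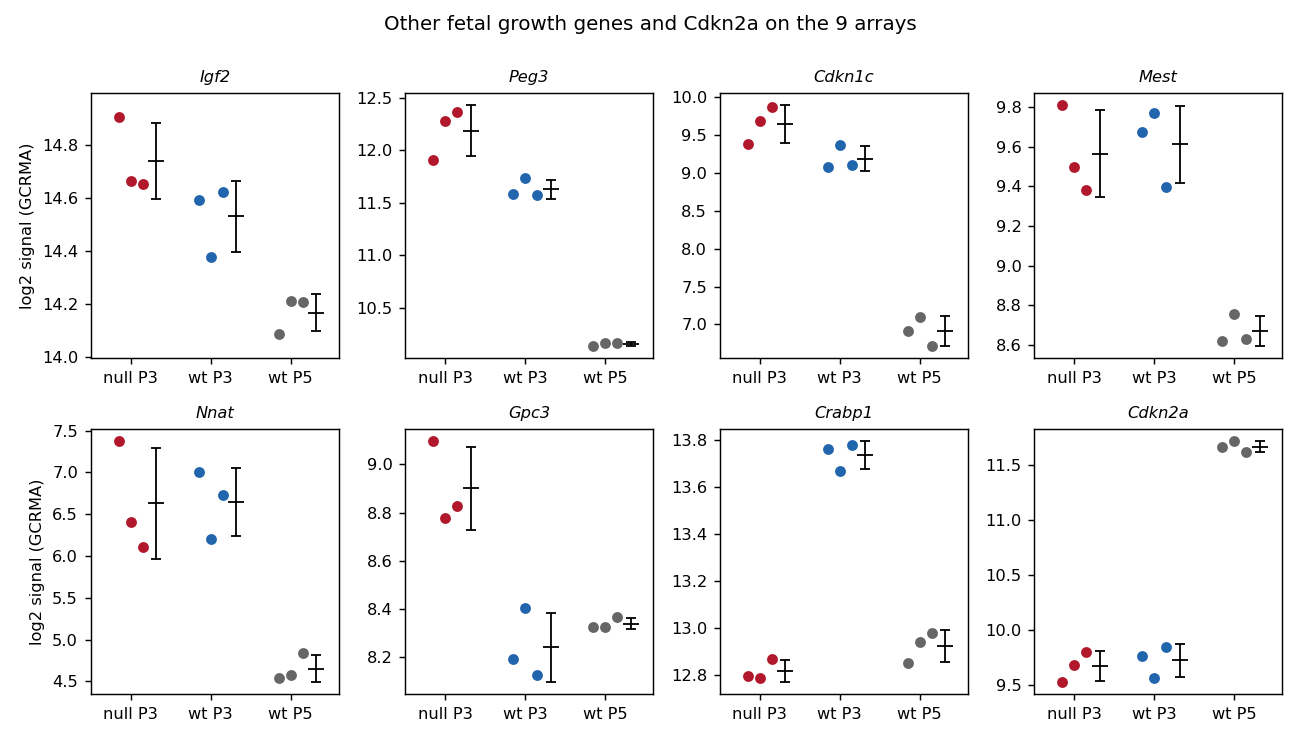
Log2 signal of Igf2, 6 other fetal growth genes and Cdkn2a on the 9 arrays, with an axis of its own for each gene, points for single arrays and black bars for mean ± SD (n = 3). Peg3, Cdkn1c, Mest and Nnat are lowest at P5, Crabp1 is highest at wild type P3, Gpc3 is highest in the null, and Cdkn2a is highest at P5.

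The genes whose signals followed Mdk and Bex1 most closely over the 9 arrays were found by Pearson correlation among 2335 probe-sets with a mean of at least 6 and a range of at least 1. For Mdk these were Igf2bp1 (r = 0.992), Cdc25a (r = 0.991), Lrp8 (r = 0.990), Cotl1 (r = 0.989) and Rbpms (r = 0.988). For Bex1 they were Cotl1 (r = 0.998), Tro (r = 0.996), Gap43 (r = 0.993), Cdkn1c (r = 0.989) and Prr9 (r = 0.989). All share the same 9 arrays and a low P5 group, which sets most of each correlation. Tro, which encodes trophinin on the X chromosome, was lower at P5 than at P3 by 1.90, Gap43, a growth cone protein, by 1.62 and Cotl1, an actin-binding protein, by 1.12.

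Markers of other cells moved along with some of these differences. Over all genes, 1.51% rose and 1.07% fell in the null, and 6.13% rose and 7.11% fell at P5. The mean log2 signal of 10 muscle markers was 5.17 to 5.51 in the null, 4.17 to 4.22 at P3 and 3.22 to 3.35 at P5, and 6 of them rose in the null and 2 fell at P5. The mean of 10 macrophage markers was 4.78 to 5.24 in the null and at most 4.27 in the wild type groups, and 1 rose in the null. The mean of 11 proliferation markers was 10.09 to 10.16 in the null, 10.47 to 10.53 at P3 and 9.67 to 9.78 at P5, with 2 that fell in the null and 10 at P5. Mesothelial and epithelial markers had a mean of 4.31 to 4.42 in the null, 4.38 to 4.41 at P3 and 3.98 to 4.06 at P5, and 1 of 10 fell at P5, the keratin Krt18, by 2.66. The 16 neural and neural crest markers had a mean of 4.13 to 4.23 in all groups, with 1 that rose and 1 that fell at P5. The 8 endothelial markers had 0 calls in either comparison, and of 13 fibroblast markers 1 fell in the null and 3 rose at P5. The part of these cells in the differences of Mdk, Bex1, Bex2 and Igf2bp1 was not tested.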

How the data were processed

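Total RNA of 9 MEF cultures was hybridized to Affymetrix MOE430_2.0 arrays. The authors deposited log2 signals from GCRMA, a method that removes background estimated from probe sequence, normalizes arrays by quantiles and summarizes each probe-set. Limma is also named in the submitters' processing notes, without a version for either tool. Values were used as deposited. Through the platform annotation, 34958 probe-sets had 1 symbol, 932 had several and 9211 were unnamed.

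A model of 3 group means over all arrays was fitted in R 4.3.3 with limma 3.58.1 at default settings, and each comparison was tested with Benjamini-Hochberg adjustment over 45101 probe-sets at 0.05. A listed gene is represented by its probe-set with the highest mean signal. P-values measure the spread between cultures, and the number of arrays limits precision. Whether the cultures of a group came from separate embryos is not stated, so the spread between embryos may not be covered. An exact permutation test of 3 against 3 cannot go below 0.1. Groups said not to overlap are therefore a description, and the share of all probe-sets without overlap was not counted.

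The members, the gene lists and the rule for naming genes were chosen with earlier results of these data known. Named are all members, up to 4 genes per pathway list and comparison with the largest difference among those passing, and the 5 genes most like Mdk and most like Bex1. Hic2, Cdk6 and Crabp1 at P5 (outside the 4), Igf2, Lin28a, Ptprz1, the markers and the neighbors of Bex1 were named for their role or position after their values were seen. Promoters were aligned with Biopython 1.88. The alternatives tried were the thresholds of the study with an F test, a filter on low signals, quantile normalization, median centring, another prior, the replicate number as a block, 2 groups fitted alone, a gene's probe-sets averaged, and each array left out in turn.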

Additional observations from a re-analysis of the deposited data

How the results depend on the processing

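Of the 20 probe-sets with a genotype difference other than 0, 14 kept its direction under the alternatives run on them, and 6 with small differences turned when 1 array was left out. The filter on low signals left out 2 of the 21, Lin28b and Ptn 1443173_at. With 1 array left out, Hmga2 ranged from -0.13 to 0.0092 (1422851_at), -0.18 to 0.036 (1450780_s_at) and -0.29 to 0.078 (1450781_at), positive without null replicate 1. Ptn 1443173_at ranged from -0.054 to 0.12, negative without null replicate 2, Igf2bp3 1450687_at from -0.039 to 0.14, negative without wild type P3 replicate 3, and Igf2bp3 1453957_a_at from -0.26 to 0.042, positive without null replicate 2. Mdk ranged from 0.34 to 0.88 and Bex1 from 0.38 to 0.46.

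Counts of calls moved more. Probe-sets passing between the null and P3 numbered 717, against 256 by an F rule (a moderated F p over the 3 groups under 0.0001 and a log2 difference of at least 0.5, the thresholds of the study, which does not name its test), 1563 with a filter on low signals, 1137 with median centring, 59 with the trended and robust prior, 123 with 2 groups fitted alone, and 255 (without wild type P3 replicate 1) to 659 with 1 array left out. Of the 21 probe-sets 1 passed, against 3 by the F rule, whose p covers all 3 groups, 0 with the other prior, 0 with 2 groups alone, and 1 to 1 with an array left out. Among the pathway lists 5 genes were higher in the null (2 by the F rule, 9 filtered, 0 with the other prior, 1 with 2 groups alone, 1 to 4 with an array left out) and 4 lower (2, 7, 1, 1, and 1 to 3), both lowest without wild type P3 replicate 1.

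Between P5 and P3, 3889 probe-sets passed, against 674 by the F rule, 6035 filtered, 1297 with the other prior and 2076 to 4161 with an array left out, the lowest without wild type P5 replicate 2. Pathway genes higher at P5 numbered 12 (5 by the F rule, 7 with the other prior, 7 without wild type P5 replicate 1 or 2, to 16 with another array left out), and lower 18 (8, 11, and 16 to 21). Between the null and P5, 3258 passed, against 659 by the F rule, 5246 filtered, 1071 with the other prior, 2025 with 2 groups alone and 1753 (without wild type P5 replicate 2) to 3343 with an array left out. The cause of these shifts was not tested.

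Arrays of different groups share replicate numbers. The deviations of same-numbered arrays from their group means correlated at -0.51 to 0.42, with 4 of 9 pairs above 0.1. This does not show that the numbers pair the cultures, and with 3 arrays per group it cannot exclude it. With the replicate number as a block, 141 probe-sets passed between the null and P3, 2247 between P5 and P3 and 1763 between the null and P5. With that block 0 of the 21 passed between the genotypes (Igf2bp1 1449210_at, limma adjusted p = 0.0553), and 1 pathway gene was higher and 1 lower in the null. Signals near the floor of 2.23, as for Lin28b, limit what could be seen.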
